A study of Mus musculus with 4 samples.

Results

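Deaf1 peaks between genes are the places where the transcription factor Deaf1 was found on chromatin outside any protein-coding gene in the mouse myoblast line C2C12, whose cells can fuse into muscle fibres. Occupancy was measured by ChIP-seq, in which DNA fragments pulled down with an antibody are sequenced and places with many fragments are called as peaks. The 4 libraries were 2 made with an anti-Deaf1 antibody, replicates 1 and 2, and 2 matching inputs made without antibody. All came from C2C12 cells with no further treatment named, grown in the same serum medium. The labels describe formaldehyde fixation but also use the term native ChIP, which normally means unfixed chromatin. Nothing in the labels says whether the replicates came from separate cultures, and there was no second condition or Deaf1-deficient control, so signal that does not need Deaf1 cannot be told apart here. The members were taken from the replicate 2 list: peaks on chromosomes 1 to 19 and X whose summit (the base with most fragments) lay outside every protein-coding gene of GRCm38 and more than 1 kb from every protein-coding start or end. A dense block of 211 kb on chromosome 10, which held another 25 such peaks, was left out. The rule gave 239 peaks of the 3126 in the list (7.65%).

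Deaf1 carries a SAND domain, which contacts DNA, and its sites are known for the short core TTCG, usually present more than once. It is best known at promoters, where it can raise or lower transcription. Peaks away from protein-coding genes can mark promoters of non-coding RNAs, enhancers, the flanks of a strongly bound promoter, or repeated DNA whose reads pile up. The annotation used here separates the non-coding genes from the rest. They include long non-coding RNAs, which are transcribed like messenger RNAs but not translated, transfer RNAs, microRNAs and pseudogenes, which are disabled copies of genes.

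Of the 239 peaks, 56 had their summit within 1 kb of an end of a non-coding gene, 24 lay deeper inside one, and 159 lay in no annotated gene. At 33 long non-coding genes with a peak at an end, 31 had an entry in the RefSeq table of promoter windows (GRCm38.p6, from 250 bases before to 50 bases after each start). For 15 peaks the summit fell inside such a window, and these 15 peaks used 14 windows. The windows below are part of these 14 and are shown because they hold the DNA directly under peaks of this class. They do not follow the rank by fold. The repeated peaks at Gm13421 and A930006K02Rik, not shown, had higher mean folds (7.17 and 6.87) than that at Snhg20 (6.77). The first 5 belong to peaks found in both libraries, and the last pair to peaks found in replicate 2 alone. The window of Gm36445 also holds the summit of another peak, found in replicate 2 alone. In the last pair, BC002059 had a replicate 2 fold of 4.21, below 5430416N02Rik (6.15), which is not shown. Its window held 5 matches of TTCCGG or CCGGAA, the most among the 14. Capitals mark TTCG and its complement CGAA, and TTCCGG and its complement CCGGAA, the core recognised by the ETS family of transcription factors. Each is written 5′ to 3′ on the strand of its gene.
4930471M09Rik (chr6:91440805-91441104, minus strand): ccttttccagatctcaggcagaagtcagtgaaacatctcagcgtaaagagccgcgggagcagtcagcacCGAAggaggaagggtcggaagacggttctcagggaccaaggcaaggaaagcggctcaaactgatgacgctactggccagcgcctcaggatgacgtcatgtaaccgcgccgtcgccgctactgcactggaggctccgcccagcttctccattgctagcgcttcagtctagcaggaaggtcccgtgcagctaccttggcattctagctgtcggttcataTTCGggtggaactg
5530601H04Rik (chrX:105070075-105070374, minus strand): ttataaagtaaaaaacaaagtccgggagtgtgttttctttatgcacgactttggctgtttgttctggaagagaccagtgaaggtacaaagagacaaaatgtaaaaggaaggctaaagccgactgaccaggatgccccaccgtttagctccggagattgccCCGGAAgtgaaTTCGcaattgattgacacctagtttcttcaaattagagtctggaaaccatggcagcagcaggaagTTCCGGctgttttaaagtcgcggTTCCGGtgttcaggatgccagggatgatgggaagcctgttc
Gm1976 (chr17:94834750-94835049, minus strand): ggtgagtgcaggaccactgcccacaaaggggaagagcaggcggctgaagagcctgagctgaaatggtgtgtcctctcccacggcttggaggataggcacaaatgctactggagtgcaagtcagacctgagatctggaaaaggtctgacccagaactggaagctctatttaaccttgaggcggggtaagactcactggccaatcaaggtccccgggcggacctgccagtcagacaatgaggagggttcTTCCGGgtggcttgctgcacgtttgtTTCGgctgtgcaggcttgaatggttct
Gm36445 (chr13:65241265-65241564, plus strand): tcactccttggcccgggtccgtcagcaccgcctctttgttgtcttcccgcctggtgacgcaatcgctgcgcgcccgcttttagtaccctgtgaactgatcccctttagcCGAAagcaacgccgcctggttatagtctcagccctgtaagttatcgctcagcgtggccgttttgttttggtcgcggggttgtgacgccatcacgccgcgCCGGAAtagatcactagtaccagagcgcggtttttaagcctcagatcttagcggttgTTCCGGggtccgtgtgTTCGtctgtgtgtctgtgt
Snhg20 (chr11:117076533-117076832, plus strand): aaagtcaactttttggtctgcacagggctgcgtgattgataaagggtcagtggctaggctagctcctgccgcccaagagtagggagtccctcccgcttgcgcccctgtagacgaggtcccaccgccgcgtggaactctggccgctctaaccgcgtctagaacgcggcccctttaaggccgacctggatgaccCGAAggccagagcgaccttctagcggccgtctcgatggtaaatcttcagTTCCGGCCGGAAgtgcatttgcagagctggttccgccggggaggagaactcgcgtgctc
Snhg17 (chr2:158361460-158361759, minus strand): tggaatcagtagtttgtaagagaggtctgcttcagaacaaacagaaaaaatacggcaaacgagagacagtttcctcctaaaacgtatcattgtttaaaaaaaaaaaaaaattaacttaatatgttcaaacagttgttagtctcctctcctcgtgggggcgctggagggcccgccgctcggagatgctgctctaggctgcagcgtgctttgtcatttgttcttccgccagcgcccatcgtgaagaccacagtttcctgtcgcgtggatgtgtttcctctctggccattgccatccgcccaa
BC002059 (chr17:16951286-16951585, plus strand): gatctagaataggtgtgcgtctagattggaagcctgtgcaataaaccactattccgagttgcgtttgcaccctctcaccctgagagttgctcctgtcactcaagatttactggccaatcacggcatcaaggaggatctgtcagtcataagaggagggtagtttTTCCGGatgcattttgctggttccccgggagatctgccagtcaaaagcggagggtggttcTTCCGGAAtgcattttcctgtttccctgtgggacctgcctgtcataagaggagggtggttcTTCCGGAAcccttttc

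TTCG or CGAA occurred in 11 of the 14 windows (78.6%, 95% Wilson interval 52.4% to 92.4%), against 36.7% of all 11588 long non-coding windows of the table and 71.8% of the 1403 windows that hold a summit of a peak at a protein-coding gene end. At least 2 matches stood in 6 of the 14 (42.9%), against 10.9% of long non-coding windows and 40.1% of the windows at gene-end summits. The share under peaks between genes was thus close to that at gene ends. TTCCGG or CCGGAA occurred in 12 of the 14 (85.7%, 60.1% to 96.0%), against 7.94% of long non-coding windows and 70.3% of the windows at gene-end summits. The windows under peaks were richer in CpG than most: their median was 21 CpG dinucleotides, against 4 over all long non-coding windows. Among windows with at least 10 CpG, the 6-base core was in 9 of 11 under these peaks and in 21.5% of 2214 long non-coding windows, and TTCG or CGAA was in 10 of 11 and in 65.2%. With 14 windows the intervals are wide.

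The 6-base core also lay close to the summits. Over the 13 summits with a match in their window, the nearest TTCCGG or CCGGAA was a median of 19.5 bp away, and 11 of the 13 were within 50 bp. TTCG or CGAA, present for 12 summits, was a median of 73 bp away, with 4 of the 12 within 50 bp. Peaks at protein-coding gene ends had medians of 17.5 bp over 990 summits for the 6-base core and 52.5 bp over 1014 summits for TTCG or CGAA. A match describes letters in the window and is not a measured binding site. The peak at 4930471M09Rik had the highest replicate 2 fold enrichment of all 239, and its window held no TTCCGG or CCGGAA. It held TGACGTCA, the cyclic AMP response element, 9.5 bp from the summit. That element was searched only after this sequence had been seen, and it occurred in 2 of the 14 windows, in 0.975% of long non-coding windows and in 5.84% of windows at gene-end summits.

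**Figure D1:**
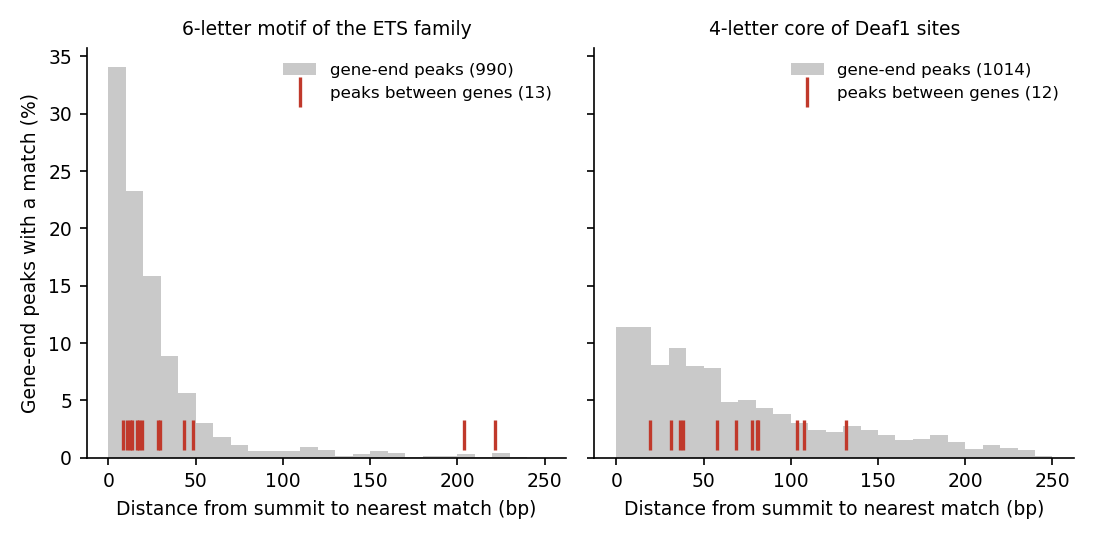
Distance in bp from a summit to the nearest match of TTCCGG or CCGGAA (left) and of TTCG or CGAA (right) in the promoter window that holds the summit. Grey bars give the percentage of gene-end peaks with a match in bins of 10 bp, and each red tick is 1 peak between genes. Most red ticks on the left lie under 50 bp, where the grey bars are also highest.

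From the deposited fold and p, the ChIP fragments over a summit and the local background were recovered as numbers of fragments. The lowest background was 1.80 fragments in replicate 1 and 2.09 in replicate 2, a ratio of 1.16. Across the 239 peaks the median summit held 19 fragments (interquartile range 15 to 26) over a median background of 2.27, and the median fold enrichment, the caller's ratio of ChIP to background, was 5.38 (4.21 to 6.80). Peaks at protein-coding gene ends were taller, with medians of 25 fragments and 6.86 fold, and peaks inside genes were alike in height, with 19 fragments and 5.50 fold. The rule applied to the replicate 1 list gave 103 peaks with medians of 20 fragments and 5.71 fold, against 7.20 fold for gene-end peaks in that library. The fold was lower between genes than at gene ends in both libraries. No peak between genes was longer than 1 kb, whereas 47 of 2128 gene-end peaks and 16 of 583 gene-body peaks were. With 2 libraries the smallest two-sided exact p is 0.5, and peaks of 1 library are not replicates, so no p is given for these differences.

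Of the 239 peaks, 74 overlapped a peak of replicate 1 by at least 1 bp (30.96%, 95% Wilson interval 25.4% to 37.1%). With reciprocal overlap of at least 50% the share was 19.2% (14.8% to 24.7%). The share by 1 bp over all 2950 peaks of replicate 2 on these chromosomes outside the block was 52.0%, with 58.3% at gene ends and 37.7% inside genes. Overlap at gene ends was 27.4 percentage points higher than between genes (95% Newcombe interval 20.9 to 33.3). Seen from replicate 1, 91 of its 103 peaks between genes (88.3%, 80.7% to 93.2%) overlapped a replicate 2 peak, against 92.3% of all its peaks. There the gap to gene ends was 4.37 points (-0.717 to 12.1), an interval that holds 0 and lies below that of the gap seen from replicate 2. Intervals cover counting error only.

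Overlap rose steeply with the height of the summit, as the plot of overlap by height shows. With up to 15 fragments in replicate 2, 0 of 61 peaks between genes overlapped replicate 1, which allows a share of up to 4.92% (3 counts of the total; Wilson limit 5.92%), and 7.80% of gene-end peaks did. With 16 to 20 fragments the shares were 16.5% and 24.3%, and with 21 to 30 fragments 25 of 50 and 56.7%. The gap was 6.68 to 7.80 points in these bands, and its interval held 0 in the bands of 16 to 20 (-2.23 to 15.4) and 21 to 30 (-7.15 to 20.5). Above 30 fragments the shares were 81.4% (35 of 43) and 94.6%, a gap of 13.2 points (4.12 to 27.3). Of those 43 peaks, 12 sat on a background above 10 fragments. Without them 29 of 31 overlapped (93.5%), and the gap was 1.01 points (-4.02 to 15.3).

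**Figure D2:**
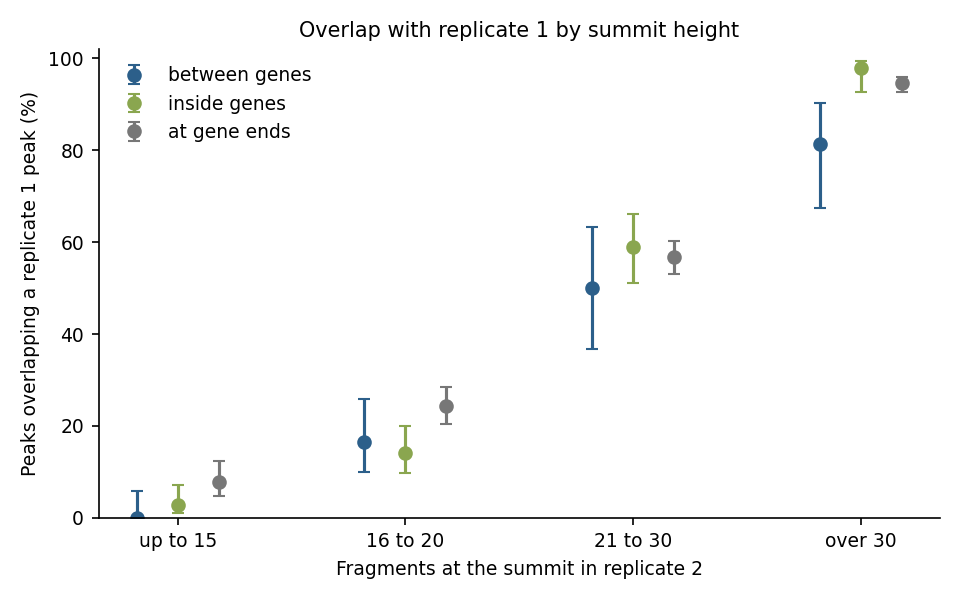
Percentage of replicate 2 peaks that overlap a replicate 1 peak, by the number of fragments at the replicate 2 summit, for peaks between genes (blue), inside genes (green) and at gene ends (grey). Bars are 95% Wilson intervals; between genes the share goes from 0 of 61 to 81.4%.

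The 74 repeated peaks had a median fold enrichment of 6.33 in replicate 1 and 7.44 in replicate 2, and the 165 others had a median of 4.86 in replicate 2. Their summits lay a median of 12.5 bp apart in the 2 libraries, and 63 of 74 lay within 100 bp. Fold enrichment was higher in replicate 2 at 48 of the 74, and over all 74 the ratio of replicate 2 to replicate 1 had a median of 1.13 and quartiles of 0.881 and 1.53. The authors' combined list, which scores how well a region's rank repeats between libraries, contained all 74. A score of at least 540, which stands for an irreproducible discovery rate of at most 0.05, was reached by 17 of the 239 peaks (7.11%), against 20.5% of all replicate 2 peaks. Where a peak overlapped more than 1 combined region, the score of the first listed region was taken, not the best. Both shares can therefore be too low. Of the 165 peaks not repeated, 38 had a replicate 1 summit within 1 kb and 87 had one within 20 kb. The same was not counted for peaks at gene ends or inside genes, so these 2 counts have no share to be set against.

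**Figure D3:**
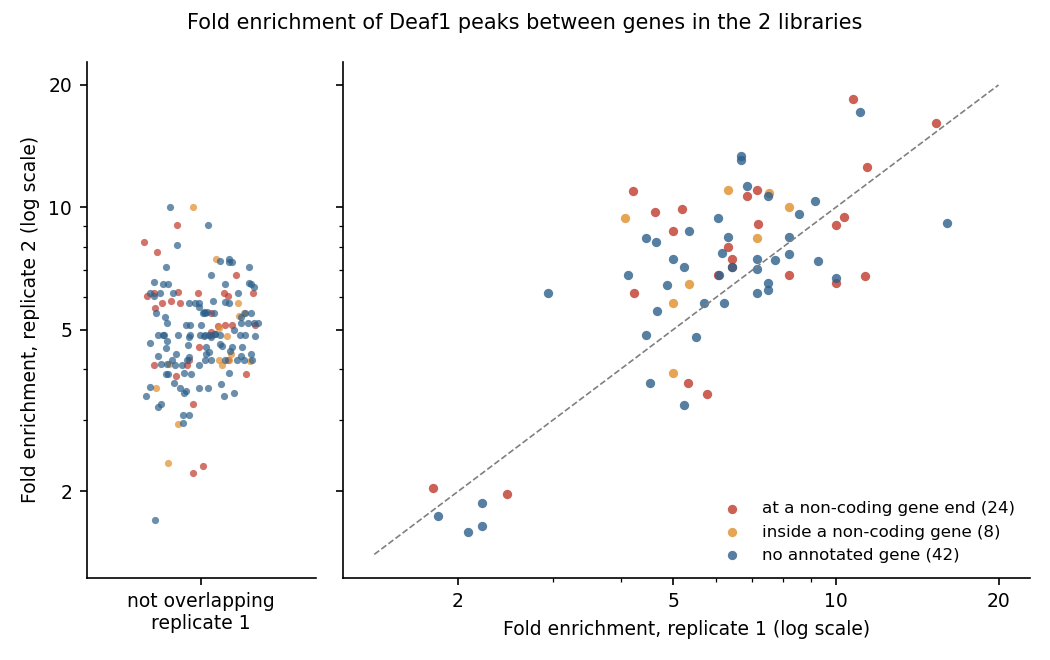
Fold enrichment of the 239 peaks between genes, on log scales: on the right the 74 that overlap a replicate 1 peak, with replicate 1 on the horizontal and replicate 2 on the vertical axis, and on the left the 165 that do not. Colours give the annotation at the summit, the dashed line marks equal values, and the lowest cluster near a fold of 2 is a copy of ribosomal RNA genes on chromosome 17.

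Summits within 1 kb of an end of a non-coding gene numbered 56 of 239 (23.4%, 95% Wilson interval 18.5% to 29.2%). Over all 2950 peaks, most of which lie at protein-coding ends, 13.6% were within 1 kb of a non-coding end. When the 239 summits were moved by 5, 10, 20 or 50 kb in either direction, between 4.18% and 10.0% lay that close. Moved summits were not required to stay between genes. Of the 106 to 179 that did so at each move, a restriction chosen after the values were seen, between 3.88% and 18.6% lay within 1 kb of a non-coding end, the highest at 20 kb. Within 100 bp of a non-coding end there were 24 summits (10.0%), between 0% and 1.67% of all moved summits, and between 0% and 2.65% of those that stayed between genes. The 56 peaks were at 48 genes, and comprised 38 at long non-coding RNAs, 11 at pseudogenes, 6 at transfer RNAs and 1 at a microRNA. Some of the 11 lay at the copy of ribosomal RNA genes on chromosome 17. Without that copy 52 of the 56 remained, of which 22 overlapped replicate 1. Of peaks at non-coding ends 24 of 56 (42.9%) overlapped replicate 1, and of the rest 50 of 183 (27.3%), a difference of 15.5 points (1.63 to 29.8). The interval held 0 at a −log10 q of at least 5 (6.02 points, -9.78 to 22.9), with reciprocal overlap of at least 50% (7.51, -3.79 to 21.1), without pseudogenes (11.1, -3.49 to 26.8) and without peaks within 20 kb of a peak over 1 kb (14.8, -0.966 to 30.4). Within bands of summit height the difference ran from -0.231 to 11.0 points and every interval held 0. In the replicate 1 list the difference was -1.23 points (-17.7 to 10.8).

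The 3 with the highest mean fold lay at starts of long non-coding RNAs. At 4833417C18Rik (chromosome 11, 95858547 to 95859133, summit 61 bp after the start) there were 42 fragments in replicate 1 and 54 in replicate 2. Its fold enrichments of 15.3 and 16.1 gave a mean of 15.7 ± 0.54 (SD, n = 2), the highest mean of all repeated peaks between genes. The peak on chromosome 6 from 91440876 to 91441133, whose window is shown above, lay 98 bp before the start of 4930471M09Rik and 35 bp before that of 1810044D09Rik. It held 57 and 56 fragments, but the background was 4.39 in replicate 1 and 2.09 in replicate 2, so its fold was 10.8 in one library and 18.5 in the other, a mean of 14.6 ± 5.4 (SD, n = 2). Nearly equal fragment numbers gave unequal folds at this site.

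At Rab10os, a transcript named for lying opposite Rab10, a gene of vesicle transport, the summit was 398 bp before the start, with 31 and 48 fragments and a mean fold of 11.99 ± 0.81 (SD, n = 2). Gm31068, 34074 bp from Foxk1, which encodes a forkhead repressor, had its summit 223 bp from an end, with 28 and 36 fragments and a mean fold of 9.92 ± 0.61 (SD, n = 2). The transcribed pseudogene Gm6345 had 27 fragments in both libraries and 9.53 ± 0.66 (SD, n = 2). At these 3 peaks the folds of the libraries differed little. The other members of the top 10 were 5530601H04Rik, Gm36738, E430024I08Rik, Gm1976 and BC025920, with mean folds from 8.15 to 9.07. Of these 5, replicate 1 gave the higher fold at Gm36738 (11.3 against 6.76) and Gm1976 (9.99 against 6.51), and both sat on a higher background in replicate 2 (5.80 and 4.84 fragments) than in replicate 1 (2.09 and 1.80).

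A start with known strand lay within 1 kb of the summit for 32 peaks between genes, at 27 long non-coding genes. Peaks at a non-coding end whose known start lay farther away were left out. An example is Gm31068, with its summit 1753 bp after the start. Shares of the 32 therefore do not cover all peaks at non-coding ends. The summit was within 250 bp of the start for 20 of the 32 and within 100 bp for 14, and it lay before the start for 18. Of the 32, 15 overlapped a replicate 1 peak.

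**Figure D4:**
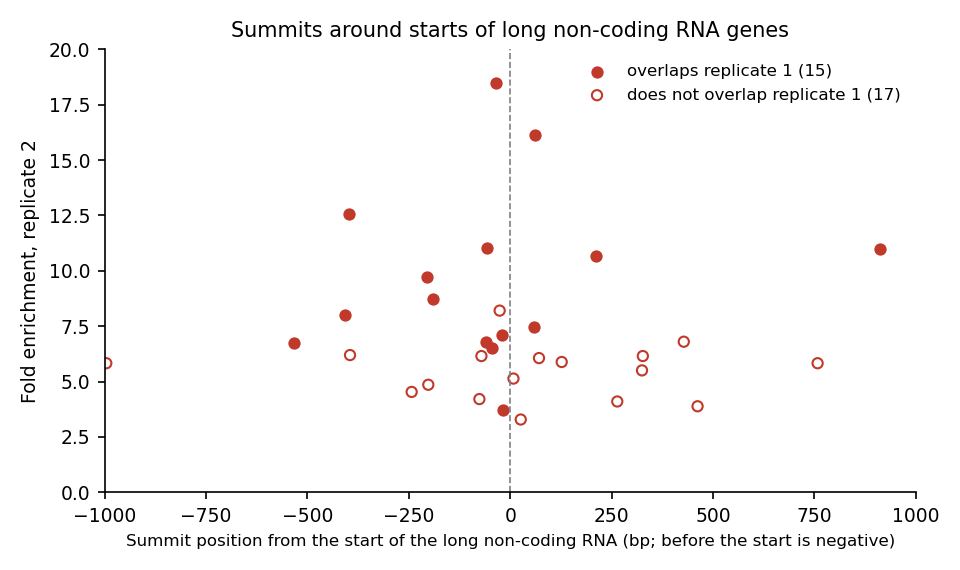
Position of the 32 summits within 1 kb of a start of a long non-coding RNA (horizontal, bp, negative before the start) and their fold enrichment in replicate 2 (vertical). Filled points overlap a replicate 1 peak (15) and open points do not (17); both points above a fold of 15 lie within 100 bp of the start.

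A list of named non-coding genes was drawn up for this cell type and assay. Of all 27923 non-coding genes on these chromosomes, 48 had a peak of this class at an end, counting the nearest gene for each peak. Whether the listed genes differ from that share was not tested. Among 21 hosts of small nucleolar RNAs (the guides of RNA modification that are cut from introns), Snhg8, Snhg17 and Snhg20 had a peak of this class at an end. Another 4 (Snhg6, Snhg9, Snhg10 and Gas5) had a replicate 2 peak that also lay at or in a protein-coding gene. Those at Snhg9 and Gas5 repeated, and those at Snhg6 and Snhg10 did not. The share of all non-coding genes with such a peak was not counted. The Snhg20 peak, 20 bp before its start, repeated, with 17 and 21 fragments and a mean fold of 6.77 ± 0.49 (SD, n = 2). The Snhg17 peak was seen in replicate 2 alone, with 31 fragments (95% exact Poisson interval 21.1 to 44.0) and a fold of 8.20, and its window held neither motif. At Snhg8 there were 19 fragments, also in replicate 2 alone. Of 14 long non-coding RNAs, Norad, which binds Pumilio proteins and guards chromosome stability, had a peak 34 bp from an end in replicate 2 alone, with 27 fragments and a fold of 9.07. Tug1 had one at a protein-coding end that repeated. Malat1, Neat1, H19, Meg3 and Xist had none within 1 kb of an end, and peaks deeper inside listed genes were not searched for. Of 9 small structural RNAs such as 7SK and the RNase P RNA, none had a peak of this class, and Rnu12 had one at a protein-coding end that repeated. Of 10 muscle non-coding RNAs, 5 were in the gene table, 1 of them as a protein-coding gene, and none had a peak within 1 kb of an end.

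The 6 peaks at transfer RNA genes included none that repeated (0 of 6, which allows a share of up to 50% by 3 counts, Wilson limit 39.0%). They held 12 to 21 fragments in replicate 2, with folds of 3.85 to 6.80. The summit at n-TQttg6 was 2 bp from the gene's end and only 367 bp from the strong peak at 4833417C18Rik. The single microRNA was Mir210, whose product is known to rise in low oxygen: its peak lay 528 bp from the gene, with 19 fragments in replicate 2 alone.

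Away from annotated non-coding ends, 5 of the 10 repeated peaks with the highest mean fold lay in no annotated gene. The first of these was on chromosome 4 from 137989450 to 137990017, 2133 bp from an end of Eif4g3, which encodes a translation initiation scaffold. Its summit held 30 fragments (replicate 1) and 52 fragments (replicate 2), for a mean fold of 14.1 ± 4.3 (SD, n = 2). Next came chromosome 5 from 32713952 to 32714319, 22207 bp from Pisd, which encodes a mitochondrial phosphatidylserine decarboxylase, with 44 and 70 fragments and 12.6 ± 4.9 (SD, n = 2). Here the taller library had the lower fold, 9.14 against 16.1, over backgrounds of 6.77 and 1.80 fragments. The remaining 3 were on chromosome 10 at 81551649 to 81551904 (6593 bp from Gna11, a G protein subunit), chromosome 15 at 38275266 to 38275402 (16138 bp from Klf10, a zinc finger factor) and chromosome 11 at 115083477 to 115083963 (7801 bp from Rab37). Their mean folds were 10.0 ± 4.8, 9.87 ± 4.5 and 9.76 ± 0.85 (SD, n = 2 each). With such SDs the order of these 5 cannot be told. None of their folds was below 6.68 in either library.

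Many of the peaks sat near broad peaks. Within 20 kb of a replicate 2 peak longer than 1 kb there were 85 of the 239 (35.6%, 95% Wilson interval 29.8% to 41.8%). The share was 39.1% of peaks inside genes, 3.99% of those at gene ends and 13.5% of all 2950 peaks. A broad peak was not counted as its own neighbour, and 47 of the 63 broad peaks were themselves at gene ends. These 85 surrounded 25 of the 63 broad peaks, and 23 of the 25 were at gene ends. The 25 had a median fold of 29.7 and a range of 7.40 to 53.7. The lowest, at C1qtnf6 (7.40) and Eif4g3 (9.07), were not far above the median of 6.86 for gene-end peaks, and the broad peak at Eif4g3 was below its own neighbour at 17.2. Around Ski, which encodes a repressor in TGF-beta signalling, a broad peak of 51.5 fold in replicate 2 had 9 such neighbours at 3023 to 12487 bp, of which 4 repeated, with folds of 3.89 to 10.0. Around Tada1, which encodes a subunit of the SAGA coactivator, a broad peak of 53.7 fold had 8 at up to 18842 bp, of which 2 repeated. Gna11 had 7, and Mark2, which encodes a microtubule-regulating kinase, had 6, each with 2 repeated. A pair of broad peaks at C1qtnf6 had 6 and 4, of which 2 and 1 repeated. Spats2 had 4, of which 2 repeated, and Commd3 had 4, of which 0 did. Arglu1, Ercc4 and Eif4g3 had 3 each, with 1 repeated at each, and Zc3h4, Creb1, Tsc22d1 and Trio had 3 each with 0 repeated. Of the 85, 21 overlapped replicate 1 (24.7%, 16.8% to 34.8%), against 53 of the other 154 (34.4%, 27.4% to 42.2%). These intervals overlap. Of the 5 peaks with the highest fold among those not repeated, 3 were of this kind, near Ski (10.0), Zc3h4 (10.0) and Mark2 (9.07). The other two were at Norad and Snhg17. How far fragments of the broad peaks reach into these neighbours was not tested.

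**Figure D5:**
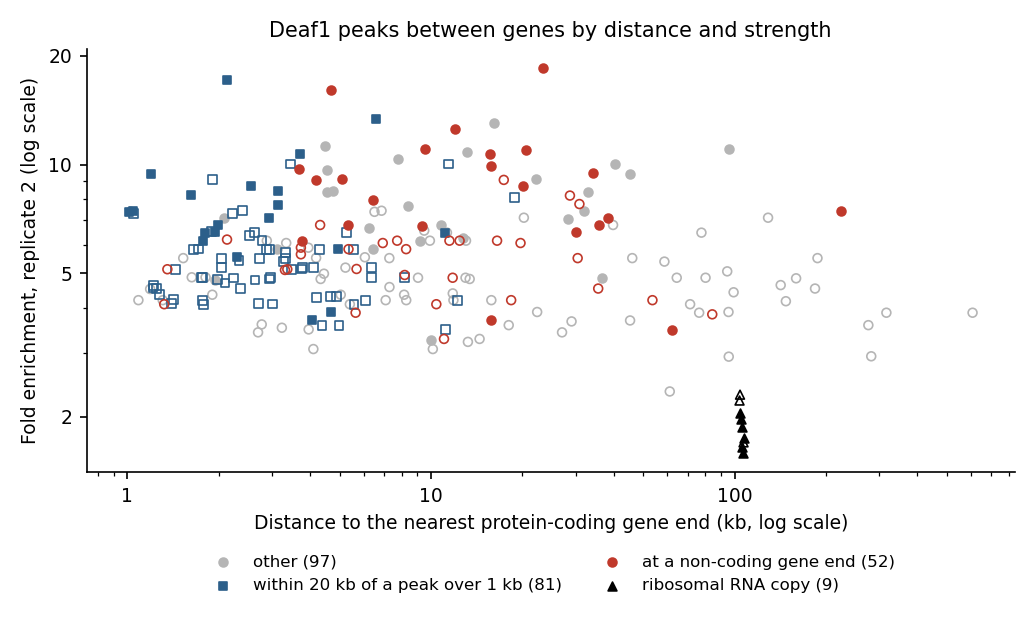
Distance of each of the 239 summits from the nearest protein-coding gene end (horizontal, kb, log scale) against replicate 2 fold enrichment (vertical, log scale); filled symbols overlap a replicate 1 peak and open ones do not. Squares, within 20 kb of a peak over 1 kb (81, without 4 at non-coding ends), crowd below 10 kb, and the 9 triangles at the ribosomal RNA copy lie at folds of 1.59 to 2.30.

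With gaps of at most 20 kb, 119 of the 239 (49.8%, 43.5% to 56.1%) had another peak between genes nearby, and the 239 fell into 153 places, 120 of them single. The share with a peak of their own class nearby was 58.8% of 583 inside genes and 26.2% of 2128 at gene ends. It was 26.3% for peaks between genes more than 5 kb from protein-coding ends, and 22.7% without those within 20 kb of a peak over 1 kb. The longest run had 10 peaks in 38477 bp on chromosome 15, from 78513652 to 78552128, between Il2rb, Sstr3 and C1qtnf6. Its peaks had folds of 3.58 to 7.72, and 3 of the 10 repeated. These 10 are the same peaks that were counted above as neighbours of the pair of broad peaks at C1qtnf6. Chromosome 15, with this run included, had 30 of the 239 (12.6%) and 7.15% of all peaks. A run of 4 peaks from 104589919 to 104596844 on chromosome 11, next to Myl4, was singled out after its values were seen, because that gene encodes a myosin light chain of embryonic muscle. Of these 4 peaks 1 repeated, with folds of 6.20 in replicate 1 and 5.83 in replicate 2, and it had no broad peak within 20 kb.

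The median distance to a protein-coding end was 6244 bp (interquartile range 2926 to 19922.5). Between 1 and 20 kb the share that repeated was 27.8% to 29.4% in each band, between 20 and 50 kb it was 56.0% (14 of 25, 37.1% to 73.3%), between 50 and 100 kb it was 13.3% (2 of 15), and beyond 100 kb it was 35.0% (7 of 20, 18.1% to 56.7%). Of those 7, 6 lay at the copy of ribosomal RNA genes on chromosome 17. Of the 25 at 20 to 50 kb, 11 were at non-coding ends. Summit height also differed between bands, with medians of 18 to 19 fragments up to 20 kb and 24 at 20 to 50 kb. It was 15 at 50 to 100 kb and 39 beyond. Distance was not separated from height. The 3 peaks just inside the rule, 1011 to 1040 bp from Spats2, Zfp36 and Ercc4, had replicate 2 folds of 7.40, 7.45 and 7.45. The 3 outside genes that just missed it, 934 to 983 bp away, had folds of 4.32 to 5.18. All 3 just inside overlapped a replicate 1 peak and none of the 3 just outside did. Those inside were also taller, with 22 to 35 fragments in replicate 2 against 14 to 17. The next peak inside the rule, 1050 bp from Sstr3 with a fold of 7.33, did not overlap a replicate 1 peak.

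The most remote repeated peak with an ordinary background was on chromosome 1 from 7397879 to 7398120, 224410 bp from Pcmtd1 and 58 bp after the start of the long non-coding RNA Gm26901. Its fragments numbered 17 (replicate 1) and 22 (replicate 2), with a mean fold of 6.94 ± 0.72 (SD, n = 2). The next 4 in distance all lay in a single copy of ribosomal RNA genes on chromosome 17, where 9 peaks stood between 39843048 and 39846777, near the pseudogene Rn18s-rs5. Ribosomal RNA genes are present in many tandem copies, most of them missing from the assembly. The 9 summits held 57 to 96 fragments in replicate 2 over backgrounds of 25.1 to 56.1, and their folds were 1.59 to 2.30, the lowest among the 239. Of the 9, 6 overlapped a replicate 1 peak, where folds were 1.80 to 2.46 and backgrounds 33.5 to 45.7. Another 3 peaks had a background above 10 fragments and none repeated. Without these 12 peaks, 68 of 227 repeated (29.96%).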

How the data were processed

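Per the submitters' processing notes, FastQC 0.11.8, BWA 0.7.17-r1198 and MACS2 2.1.2 were used with build mm10 (GRCm38). Settings and treatment of duplicate reads are not given in the sources used here. The labels' protocols describe formaldehyde fixation and also use the term native ChIP, which normally means unfixed chromatin. The authors deposited 1 peak list per ChIP library, with fold enrichment (a ratio at the summit), −log10 p, −log10 q, a score close to 10 times −log10 q, and the summit's offset. They also deposited a combined list of 1550 regions with a score. Its 6 columns of single-sample values were not used. No file of the inputs was analysed here.

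For 100% of peaks, exactly 1 whole-number pileup fitted both fold and p by the MACS2 formula, so fragments and background at each summit were recovered. Gene spans came from RefSeq (GRCm38.p6, 21631 protein-coding and 27923 other genes on these chromosomes). Spans carry no strand, so an end can be a start or a stop. Recovery, classes and overlaps were tested on simulated data. Python 3.11.15, scipy 1.17.1, pandas 2.3.3 and numpy 2.4.6 were used.

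Shares carry 95% Wilson intervals and differences Newcombe intervals. A floor for 0 counts is 3 counts. Named were the 10 repeated peaks with the highest mean fold, the 10 such at non-coding ends, the 5 strongest not repeated, the 5 repeated ones farthest from genes, listed non-coding genes with a peak at an end, and the longest run. Members and lists were chosen with earlier results of these data known. Alternatives covered the q threshold, distances, overlap, replicate 1 as source, the block, pseudogenes and merging.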

Additional observations from a re-analysis of the deposited data

How the results depend on the processing

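The 239 peaks became 152 at a −log10 q of at least 5 (median fold 6.31) and 133 beyond 5 kb from protein-coding ends, where 33.1% lay at non-coding ends and 26.3% within 20 kb of another. With reciprocal overlap of at least 50%, 19.2% repeated. Within 100 bp, 10.0% lay at non-coding ends. Without replicate 2 or without replicate 1, the number of peaks ran from 103 to 239, the median fold from 5.38 to 5.71, the share at non-coding ends from 23.4% to 31.1% and the share near another from 43.7% to 49.8%. With the rule applied to the replicate 1 list, 88.3% repeated, the gap to gene ends was 4.37 points and that between non-coding ends and the rest turned to -1.23 points. The next alternatives were added after seeing the data. Leaving out peaks within 20 kb of a peak over 1 kb left 154, with 33.8% at non-coding ends and 22.7% near another; leaving out backgrounds above 10 moved no value beyond its counting interval. The cause was not tested, except that stricter rules keep fewer peaks. Of 66 alternative values, 7 were identical to the reported ones and show no stability: 4 without replicate 1, since members come from replicate 2, and 3 for overlap with the combined list, which gave the same peaks. Of the other 59, 43 stayed within 1.5 times (counts), the SD between libraries (fold) or the counting interval (shares). No paired analysis was possible because the inputs were not analysed here and both ChIP libraries belong to 1 group. At 19 fragments per median summit, counting error limits single peaks.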
